A study of Mus musculus with 6 samples.

Results

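Cyclin-dependent kinase inhibitors are the small proteins that hold back the kinases of the cell cycle, and their transcripts were followed here in the mouse neuroblastoma line N2A under knockdown of the long non-coding RNA Dali. The rule took every gene-level probe set of the array that is annotated to Cdkn1a, Cdkn1b, Cdkn1c, Cdkn2a, Cdkn2b, Cdkn2c or Cdkn2d and to no other gene. It found 7 probe sets of 6 genes among 21789 probe sets with 1 gene symbol. Cdkn1b had 2 of them, called probe set 1 (10542310) and probe set 2 (10542317), and the others were 10569429 (Cdkn1c), 10514340 (Cdkn2a), 10514347 (Cdkn2b), 10515090 (Cdkn2c) and 10591517 (Cdkn2d). Cdkn1a, which encodes p21, lay only in 1 probe set that also carries the symbol 4930567H12Rik, and was therefore not analysed here.

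Both groups were N2A cells transiently transfected with 1.5 ug of an shRNA expression construct, and RNA was taken 2.5 days later. The Dali knockdown group (3 arrays) received a construct directed against Dali and the control group (3 arrays) a non-targeting vector. The comparison rests on a single Dali construct in transfected cell populations, and the labels call the arrays biological replicates without naming the cultures. None of the annotated probe sets carries the symbol of Dali, whose own level was therefore not analysed here. Values are log2 RMA values (array intensities after background correction and quantile normalisation), and p-values measure only the spread between these arrays.

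The family has a pair of branches. The Cip/Kip inhibitors (Cdkn1a, Cdkn1b and Cdkn1c, encoding p21, p27 and p57) bind assembled cyclin-CDK complexes, whereas the Ink4 inhibitors (Cdkn2a to Cdkn2d) bind CDK4 and CDK6 and keep D-type cyclins from activating them. In neural tissue these genes are best known for holding progenitors out of the cell cycle as they become neurons. Cdkn2a also encodes Arf, a protein in another reading frame that restrains Mdm2 and so protects p53. The probe set of Cdkn2a is annotated with transcripts of both products, which cannot be told apart here.

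Promoter windows of the members, from 250 bases before to 50 after each transcript start, were read from RefSeq (GRCm38.p6), which matched 6 of the 7 genes with 9 windows. The windows of Cdkn2c are shown because the largest difference among the members was found there, and those of Cdkn2a because its single probe set joins transcripts of both starts. Capitals mark GC boxes (GGGCGG), E-boxes (CACGTG) and E2F-type letters (TTTCGCGC, TTTGGCGC or TTTCCCGC) on either strand, none of which overlap another motif here, and all 4 windows read 5′ to 3′ on the minus strand of chromosome 4.
Cdkn2c upstream start, chr4:109666707-109667006: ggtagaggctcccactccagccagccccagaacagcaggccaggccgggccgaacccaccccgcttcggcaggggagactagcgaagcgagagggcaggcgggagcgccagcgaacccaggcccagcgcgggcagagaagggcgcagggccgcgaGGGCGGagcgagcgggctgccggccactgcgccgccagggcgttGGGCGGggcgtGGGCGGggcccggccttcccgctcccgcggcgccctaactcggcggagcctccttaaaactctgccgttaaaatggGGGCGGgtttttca
Cdkn2c downstream start, chr4:109665323-109665622: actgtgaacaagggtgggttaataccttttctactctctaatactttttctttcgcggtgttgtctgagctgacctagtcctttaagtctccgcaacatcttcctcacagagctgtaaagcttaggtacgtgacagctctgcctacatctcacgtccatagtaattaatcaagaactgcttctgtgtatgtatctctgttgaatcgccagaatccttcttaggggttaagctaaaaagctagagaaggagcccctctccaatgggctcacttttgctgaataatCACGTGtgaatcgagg
Cdkn2a upstream start, chr4:89294570-89294869: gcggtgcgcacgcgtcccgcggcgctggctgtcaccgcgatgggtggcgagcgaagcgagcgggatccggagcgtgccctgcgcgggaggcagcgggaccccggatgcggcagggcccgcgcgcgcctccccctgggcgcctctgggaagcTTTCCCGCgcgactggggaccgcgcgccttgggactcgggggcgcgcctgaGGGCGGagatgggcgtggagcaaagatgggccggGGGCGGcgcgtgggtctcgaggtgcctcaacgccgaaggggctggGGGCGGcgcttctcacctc
Cdkn2a downstream start, chr4:89282143-89282442: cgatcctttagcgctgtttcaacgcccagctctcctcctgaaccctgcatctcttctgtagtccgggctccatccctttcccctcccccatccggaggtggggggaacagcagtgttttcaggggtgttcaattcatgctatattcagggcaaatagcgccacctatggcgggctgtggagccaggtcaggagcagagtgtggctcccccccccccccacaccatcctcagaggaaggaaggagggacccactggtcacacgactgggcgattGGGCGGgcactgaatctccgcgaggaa

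The upstream window of Cdkn2c held 4 GC boxes and 33 CpG dinucleotides, and the downstream window, 1384 bases away, held 1 E-box, 0 GC boxes and 8 CpGs. Over 32851 windows of the same length the median was 7 CpGs (quartiles 3 and 20), so that the upstream start of Cdkn2c is CpG-rich and the downstream start is ordinary. The upstream window of Cdkn2a was richer still (45 CpGs, 3 GC boxes and 1 E2F-type match), while that of its downstream start had 12 CpGs and 1 GC box. GC boxes occurred in 7 of the 9 member windows and in 35.7% of all windows, E-boxes in 1 of the 9 and in 7.15%, and E2F-type letters in 1 of the 9 and in 1.84%. Cdkn1b (30 CpGs), Cdkn2d (22) and Cdkn2b (18) each had a single window. A match describes the letters only.

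The members were first placed against the background of the array. Olfactory receptor genes are silent in most cells outside the nose, and their 1035 probe sets had a median of 5.49 and a 95th percentile of 7.15 in control arrays. Each member lay above that 95th percentile in control cells, at 11.86 ± 0.11 for Cdkn1b probe set 1, 8.88 ± 0.03 for Cdkn1b probe set 2, 8.03 ± 0.15 for Cdkn1c, 10.06 ± 0.15 for Cdkn2a, 7.74 ± 0.10 for Cdkn2b, 8.66 ± 0.15 for Cdkn2c and 9.16 ± 0.19 for Cdkn2d (SD, n = 3). Cdkn2b, which encodes p15, was nearest to that background. Lying above the 95th percentile does not by itself show expression, since 5 of 6 fibroblast and 3 of 5 glial markers did so too. The highest of these, Col1a1 (8.58) and Erbb3 (9.03), were above Cdkn2b and Cdkn1c, and Erbb3 was also above Cdkn2c and Cdkn1b probe set 2. Because probes differ in how strongly they bind, these levels give no order between the genes.

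**Figure D1:**
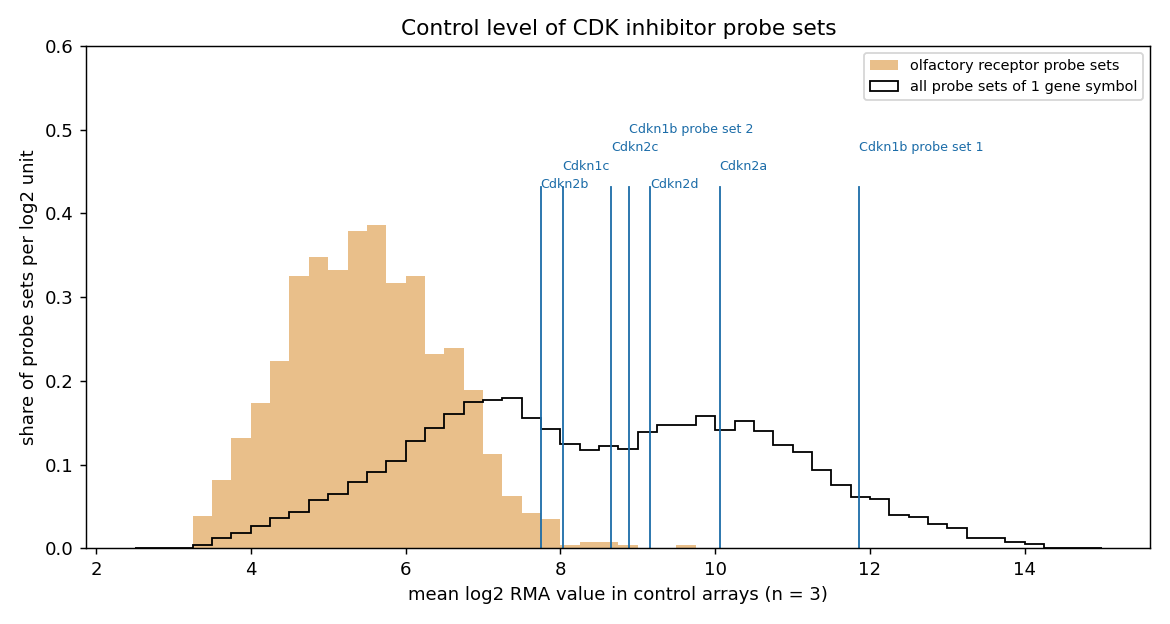
Mean log2 RMA value in control arrays (horizontal axis, n = 3) against the share of probe sets per log2 unit (vertical axis), for olfactory receptor probe sets (filled) and all probe sets of 1 gene symbol (outline). Blue lines mark the 7 probe sets of the CDK inhibitors, from 7.74 for Cdkn2b to 11.86 for Cdkn1b probe set 1, and all lie above the olfactory receptor 95th percentile of 7.15.

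The arrays were then checked for the cell type on their labels. All 10 measured markers of neuroblastoma and the sympathetic lineage, among them Phox2a, Hand2, Isl1, Th and Dbh, were above the olfactory receptor 95th percentile in control cells, as were 3 of 5 glial, 5 of 6 fibroblast, 2 of 5 endothelial and 1 of 5 leukocyte markers. None of the 31 was called between the groups by the test given below, which called 1.14% of all probe sets tested. Only markers kept by its filter on variance could be called. These were 6 lineage, 4 glial, 6 fibroblast, 3 endothelial and 1 leukocyte markers. Of the 10 lineage markers 9 had a lower mean in Dali knockdown cells. The mean level of the 10 ranged from 11.37 to 11.46 in Dali knockdown arrays and from 11.50 to 11.61 in control arrays. The part of this shift in the results below was not tested. In such bulk RNA, fewer cells of a type and less RNA per cell cannot be told apart.

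Dali knockdown left most CDK inhibitor transcripts close to their control level, and the largest difference was a higher level of Cdkn2c that did not pass the test. A probe set was called when its limma adjusted p, over the 11705 probe sets kept by a filter on variance, was under 0.1 with a fold of at least 1.3. The filter kept 4 of the 7 member probe sets (Cdkn1c, Cdkn2a, Cdkn2c and Cdkn2d), and values for the others come from the fit without it. None of the 4 members kept was called, against 1.14% of all probe sets tested (43 higher and 90 lower, or 57 and 71 after median centring of the arrays). Of these 4 only Cdkn2c had an unadjusted p under 0.05, against 12.7% of those tested. The other members could not be called in this fit, and none of the 7 was called without the filter. The median difference was 0.04 over the 7 member probe sets and 0.02 over all annotated ones. Means were higher in Dali knockdown cells for 4 member probe sets and lower for 3.

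**Figure D2:**
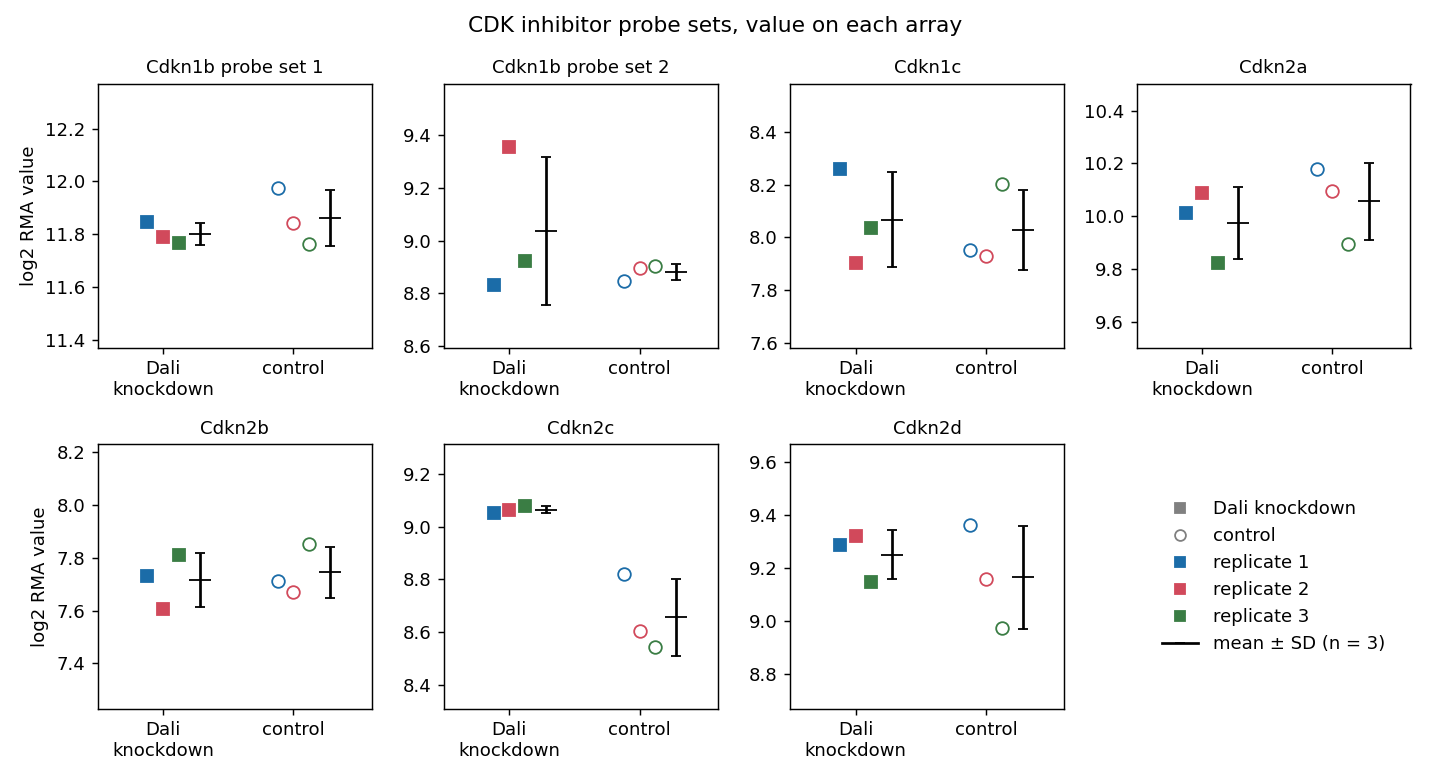
Log2 RMA value on each array (vertical axis, every panel spanning 1 log2 unit) for the 7 probe sets, with Dali knockdown arrays as filled squares and control arrays as open circles, coloured by replicate number. Black bars are the mean ± SD (n = 3). The groups stand apart only for Cdkn2c (means 9.06 and 8.66), and 1 Dali knockdown array is high for Cdkn1b probe set 2 (9.35).

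Cdkn2c encodes p18Ink4c, an Ink4 inhibitor expressed in proliferating progenitors. Its log2 values were 9.05, 9.06 and 9.08 in Dali knockdown arrays 1 to 3 and 8.82, 8.60 and 8.54 in control arrays 1 to 3. All Dali knockdown arrays lay above all control arrays, as did 9.55% of the probe sets tested, and they were nearly level with each other. The mean was 9.06 ± 0.01 in Dali knockdown cells and 8.66 ± 0.15 in control cells (SD, n = 3), a difference of 0.41 (SE 0.14, 95% interval 0.12 to 0.69), or 1.33-fold. It did not pass the test (limma adjusted p = 0.20). The exact permutation test gave p = 0.1, the smallest two-sided p for 3 against 3 arrays.

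Deviations from the group mean correlated by 0.65 between arrays of the same replicate number in pairs 2 and 3, but only by 0.14 in pair 1. Control replicate 1 correlated more with Dali knockdown replicate 2 (0.20). The differences were also read within numbers, although the pairing is thus unclear for pair 1. For Cdkn2c they were 0.23, 0.46 and 0.54 in pairs 1, 2 and 3, and 21.7% of all annotated probe sets were likewise higher in all 3 pairs. With the replicate number as a block Cdkn2c was called higher (limma adjusted p = 0.028, 95% interval 0.20 to 0.61). From array 1 to 3 its Dali knockdown values increased slightly while its control values decreased, so its own arrays did not vary together within numbers. The smaller SE of the block fit (0.09, against 0.14) also draws on the variance of all probe sets tested. Cdkn2c was the only one called of the 4 members kept by the filter, where this fit called 7.65% of all probe sets tested and 2.77% as higher. That call held in the block fit without pair 1 (limma adjusted p = 0.053, difference 0.50). It was lost without pair 2 (0.24, difference 0.38) and without pair 3 (0.23, difference 0.34). Such fits keep 1 residual degree of freedom and called 926, 0 and 1 probe sets in all. The lost calls therefore cannot show which pairs carried the difference of Cdkn2c.

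**Figure D3:**
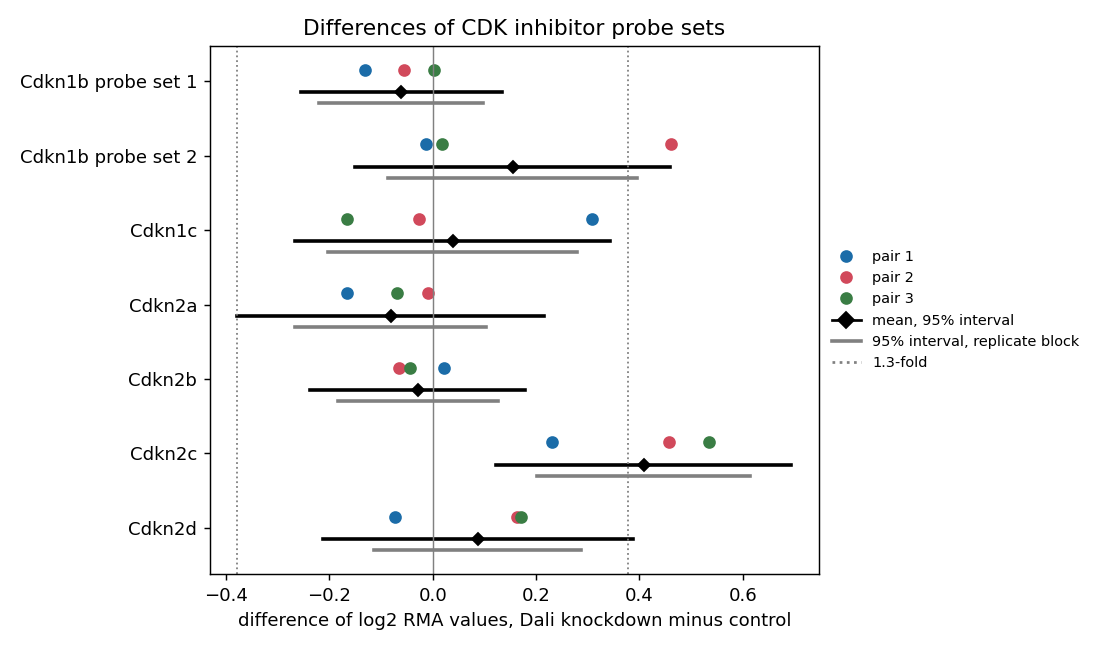
Difference of log2 RMA values, Dali knockdown minus control (horizontal axis), for the 7 probe sets. Coloured points are differences within a replicate number, black diamonds and bars the mean with its 95% interval from the fit, grey bars the interval with the replicate block, and dotted lines 1.3-fold. The interval of Cdkn2c (0.12 to 0.69) lies above 0, and the intervals of the other 6 include 0.

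Among the other Ink4 genes no difference was resolved. Cdkn2a had values of 10.01, 10.09 and 9.82 in Dali knockdown arrays and 10.18, 10.10 and 9.89 in control arrays. The groups overlapped, although each Dali knockdown array was below the control array of its number (by -0.17, -0.01 and -0.07), as were 19.7% of all annotated probe sets. The difference was -0.08 (SE 0.14, limma adjusted p = 0.90, 95% interval -0.38 to 0.21).

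Cdkn2d, encoding p19Ink4d, an inhibitor known to keep neurons postmitotic together with p27, had values of 9.29, 9.32 and 9.15 in Dali knockdown arrays and 9.36, 9.16 and 8.97 in control arrays. These ranges overlapped, and the differences were -0.07, 0.16 and 0.17 in the 3 pairs. The mean difference was 0.09 (SE 0.14, limma adjusted p = 0.89, 95% interval -0.21 to 0.39). Cdkn2b, a gene known for its induction by TGF-beta, had values of 7.73, 7.61 and 7.81 in Dali knockdown arrays and 7.71, 7.67 and 7.85 in control arrays. Its groups were interleaved, with a difference of -0.03 (SE 0.09, limma adjusted p = 0.95).

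The 2 Cip/Kip genes analysed, Cdkn1b and Cdkn1c, did not differ detectably either. Cdkn1b encodes p27, which accumulates as cells leave the cycle. Its probe set 1 had values of 11.85, 11.79 and 11.77 in Dali knockdown arrays and 11.98, 11.84 and 11.76 in control arrays. The groups overlapped, and the difference of -0.06 (SE 0.08, limma adjusted p = 0.88) had a 95% interval of -0.26 to 0.13. Probe set 2 had values of 8.83, 9.35 and 8.92 in Dali knockdown arrays and 8.85, 8.89 and 8.90 in control arrays. Only Dali knockdown array 2 stood above the control arrays by more than their spread, so that its pair had a difference of 0.46 and the other pairs -0.01 and 0.02. The mean difference was 0.15 (SE 0.13, limma adjusted p = 0.78), opposite in sign to that of probe set 1, and the 95% intervals of both included 0. Without Dali knockdown replicate 2 it was -0.00423.

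Cdkn1c encodes p57, an imprinted gene expressed from the maternal copy. Its values were 8.26, 7.90 and 8.04 in Dali knockdown arrays and 7.95, 7.93 and 8.20 in control arrays. The pairs went different ways (0.31, -0.03 and -0.17), and the mean difference was 0.04 (SE 0.14, limma adjusted p = 0.96, 95% interval -0.27 to 0.34). In all, the 95% interval lay within 1.3-fold in either direction for 4 of the 7 member probe sets, those of Cdkn1b probe set 1, Cdkn1c, Cdkn2a and Cdkn2b. For Cdkn2a its lower end (a change of -23.1%) was almost at that bound. Changes of 1.3-fold remained within the intervals of Cdkn1b probe set 2, Cdkn2c and Cdkn2d.

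Genes with the most similar course over the 6 arrays were sought for the 3 most variable members, by the root mean square distance between values centred on each probe set's mean. For Cdkn2c these were Cep192, a centrosome scaffold (distance 0.034 log2 units), the probe set annotated to the microRNA gene Mir15b (0.038) and Dot1l, a histone H3 methyltransferase (0.042), whose differences were 0.35, 0.42 and 0.38. For Cdkn1b probe set 2 they were Limd1 (0.050), Plxna1 (0.051) and A930017M01Rik (0.061). For Cdkn1c they were Cobl (0.014), Man1a (0.015) and Tmem196 (0.016). The likeness is over these 6 arrays only.

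Around the inhibitors, no measured transcript in the list of CDKs and cyclins that they bind passed the test. Within that list, those of E-type cyclins had the largest differences. Of 15 measured CDK and cyclin genes 12 averaged higher in Dali knockdown cells (median difference 0.08), and 0 of 11 kept by the filter were called, where 0.367% of all probe sets were called higher and 0.769% lower. Cdk4 and Cdk6, the partners of the Ink4 proteins, differed by 0.02 (SE 0.09) and -0.06 (SE 0.09), Cdk2 by 0.21 (SE 0.14) and Ccnd1, encoding cyclin D1, by -0.14 (SE 0.14). Cdk4 had values of 13.66, 13.62 and 13.80 in Dali knockdown arrays and 13.70, 13.54 and 13.76 in control arrays, so that its groups overlapped. Ccne1 and Ccne2 encode the E-type cyclins that p27 restrains in complex with CDK2. Ccne1 had values of 11.72, 11.63 and 11.66 in Dali knockdown arrays and 11.27, 11.15 and 11.20 in control arrays. It differed by 0.46 (SE 0.13, limma adjusted p = 0.13) and Ccne2 by 0.50 (SE 0.15, 0.13), and both were called higher with the replicate block (adjusted p = 0.013 and 0.011), 2 genes of the list where that fit called 2.77% of all probe sets higher.

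Of 14 genes for the ubiquitin ligases that degrade p21, p27 or p57, 10 averaged higher in Dali knockdown cells (median difference 0.14), and 1 of 10 kept by the filter rose, against 0.367% of all probe sets tested. Dtl, the substrate receptor through which a Cul4 ligase degrades p21, rose by 0.68 on the log2 scale. Its values were 12.07, 11.79 and 12.20 in Dali knockdown arrays and 11.42, 11.04 and 11.56 in control arrays (limma adjusted p = 0.079). All its Dali knockdown arrays lay above all control arrays, as did 9.55% of the probe sets tested. Skp2, which recognises p27, differed by 0.39 (SE 0.14, limma adjusted p = 0.26, or 0.031 and called higher with the replicate block), and its cofactor Cks1b by 0.33 (SE 0.15, limma adjusted p = 0.36). With the block 2 genes of this list, Dtl and Skp2, were called higher, against 2.77% of all probe sets.

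Pocket proteins and E2F factors are the targets of the kinases that the inhibitors control. Of 13 genes measured 11 averaged higher in Dali knockdown cells (median difference 0.19), and 1 of 9 kept by the filter rose (0.367% of all probe sets tested). That was E2f2 (1.61-fold, limma adjusted p = 0.061), with values of 10.04, 9.74 and 10.08 in Dali knockdown arrays and 9.45, 9.07 and 9.29 in control arrays. E2f1 differed by 0.13 (SE 0.10, limma adjusted p = 0.77) and Rb1, encoding the retinoblastoma protein, by 0.11 (SE 0.24, limma adjusted p = 0.93). With the replicate block, where 2.77% of all probe sets were called higher, 3 genes of the list were, namely E2f2, the pocket protein gene Rbl1 (0.39) and the E2F partner gene Tfdp1 (0.40 and 0.38 at 2 probe sets).

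**Figure D4:**
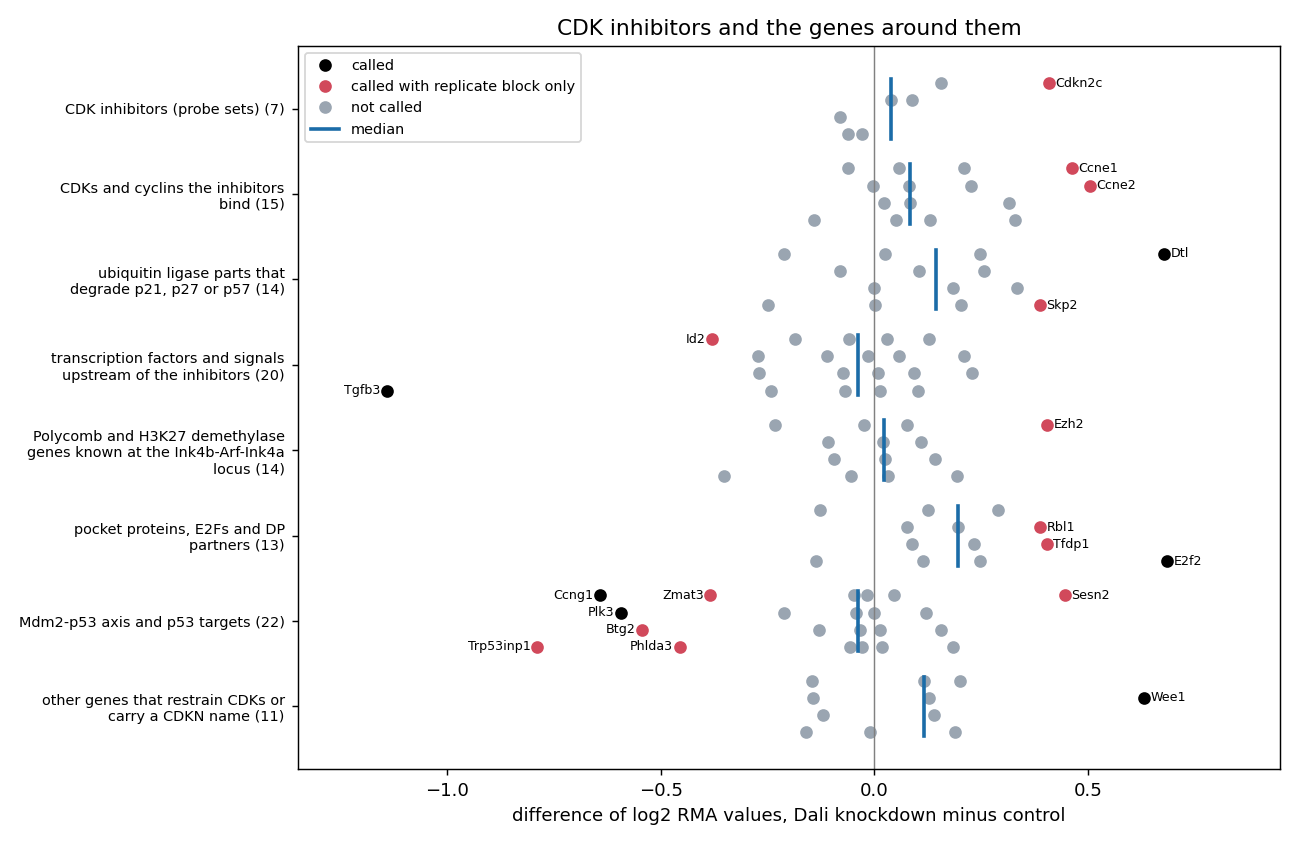
Difference of log2 RMA values, Dali knockdown minus control (horizontal axis), for the CDK inhibitor probe sets and for 7 lists of genes around them, with 1 probe set a gene in the lists and the number of points after each name. Points are black where called, red where called only with the replicate block and grey otherwise, and blue bars are medians. Cdkn2c (0.41) is the only red point among the inhibitors, and the medians of the lists run from -0.04 to 0.19.

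Upstream of the inhibitors, Tgfb3 fell. It encodes a ligand of the TGF-beta pathway, whose SMAD factors are known to induce Cdkn2b and Cdkn1a. Its values were 8.34, 8.90 and 8.20 in Dali knockdown arrays and 9.57, 9.67 and 9.63 in control arrays. The difference was -1.14 (SE 0.17, limma adjusted p = 0.0072). Of 20 transcription factors and signals measured, 13 were kept by the filter and 1, Tgfb3, was called, where 0.769% of all probe sets tested were called lower. The 20 also included Foxo1, Foxo3, Myc, Mycn, Smad2 and Smad3 and had a median difference of -0.04. The ligand genes Tgfb1 and Tgfb2 differed by -0.11 (SE 0.16) and 0.13 (SE 0.15) and were not called. Id2, an inhibitor of bHLH factors, differed by -0.38 (SE 0.26, limma adjusted p = 0.57) and was the second gene, beside Tgfb3, to be called lower with the replicate block (0.022), where 4.89% of all probe sets were. Trp53, Ccnb1 and Bax were not analysed here.

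Of 22 genes of the Mdm2-p53 axis, 15 averaged lower in Dali knockdown cells (median difference -0.04), and 2 of 16 kept by the filter fell, as did 0.769% of all probe sets tested. Ccng1, a cyclin and p53 target, fell 1.56-fold (limma adjusted p = 0.053), with values of 10.77, 10.79 and 10.68 in Dali knockdown arrays and 11.38, 11.50 and 11.28 in control arrays. The kinase gene Plk3 fell 1.51-fold (limma adjusted p = 0.085). Mdm2, the ligase that Arf restrains, had a difference of -0.000265 (SE 0.08). With the replicate block 6 genes were called lower (Ccng1, Plk3, Btg2, Zmat3, Phlda3 and Trp53inp1) and 1, Sesn2, higher, where 4.89% of all probe sets were called lower and 2.77% higher.

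Polycomb proteins are known to silence the locus that holds Cdkn2a and Cdkn2b. Of 14 measured genes for Polycomb proteins and a demethylase that opposes them, 8 averaged higher in Dali knockdown cells (median difference 0.02), and 0 of 8 kept by the filter were called (1.14% of all probe sets tested). Ezh2, the methyltransferase, differed by 0.40 (SE 0.15, limma adjusted p = 0.25) and was called higher with the replicate block (0.018), the only gene of this list to be called in that fit, which called 2.77% of all probe sets higher. Cbx8 differed by -0.35 (SE 0.14) and Bmi1 by 0.02 (SE 0.15).

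Other genes that restrain CDKs or only carry a CDKN name were mixed. Of 11 such genes 6 averaged higher in Dali knockdown cells (median difference 0.12), and 1 of 6 kept by the filter rose, beside 0.367% of all probe sets tested. Wee1, the kinase that phosphorylates and so inhibits CDK1, rose 1.55-fold (limma adjusted p = 0.066), with values of 10.91, 10.71 and 11.06 in Dali knockdown arrays and 10.35, 10.14 and 10.30 in control arrays. Its groups did not overlap, where 9.55% of the probe sets tested were higher without overlap. Cdkn3, which carries the CDKN name but encodes a phosphatase of CDKs, differed by 0.19 (limma adjusted p = 0.55). Of the genes called in these lists, Tgfb3 and Ccng1 were also called without the variance filter (limma adjusted p = 0.094 for both), and Dtl, E2f2, Plk3 and Wee1 were not (0.19, 0.13, 0.13 and 0.12). With unannotated rows kept, 0 probe sets were called in all, so that none of these 6 calls held.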

How the data were processed

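RNA of 6 N2A samples (200 ng each) was labelled for Affymetrix Mouse Gene 1.0 ST arrays. Deposited log2 values came from the authors' processing by RMA background correction, quantile normalisation and gene-level summary with the oligo, limma and genefilter packages, and ranged from 2.76 to 14.8 (array medians 7.86 to 7.93, correlations between arrays 0.990 to 0.997). No versions of these were given in the sources used. Of 35556 rows, 21789 carried 1 gene symbol, 1621 several and 12146 none. Unannotated rows were left out and rows with several symbols name no gene here.

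Following the methods, limma 3.58.1 (lmFit and eBayes, two-sided, R 4.3.3) compared 3 Dali knockdown with 3 control arrays after a filter that kept the 11705 of 23410 annotated probe sets with an interquartile range above the median, and p-values were adjusted over all of them (Benjamini-Hochberg). Reading the stated variance cut-off as that median was a choice made here. "Rose" and "fell" refer to called probe sets. Deviations from the group mean correlated by 0.14, 0.65 and 0.65 between arrays of the same replicate number, and control replicate 1 correlated more with Dali knockdown replicate 2 (0.20). These numbers from the labels were taken as pairs. The procedure was tested on simulated data. The members, lists and tests were chosen with earlier results of these data known. Lists were described by counts and medians, over the probe set with the highest mean for each gene. All members were named, and of each list up to 4 called genes, or the 2 with the smallest p where none was called, besides genes named whatever their values (Cdk2, Cdk4, Cdk6, Ccnd1, Skp2, Cks1b, Trp53, Mdm2, Ccng1, E2f1, E2f2, Rb1, Bmi1, Ezh2). Genes called only with the replicate block, Cdkn3, and the uncalled examples of upstream factors and markers were named after their values were seen. The alternatives were no variance filter, unannotated rows kept, the replicate block, median centring, a trended robust prior, array weights, other thresholds and leaving out each array. Precision is limited by the number of arrays.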

Additional observations from a re-analysis of the deposited data

How the results depend on the processing

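None of the 7 member probe sets was called under any alternative without the replicate block, including leaving out each array. The fold limit was dropped in the main fit only, where none was called either. A stricter adjusted p could not add calls to that fit. Apart from the fit without a variance filter, only members kept by the filter of a fit could be called in it. With the block 1 was called (Cdkn2c, difference 0.41, limma adjusted p = 0.028). In block fits without 1 pair, added after seeing the data, the count was 1 without pair 1 (Cdkn2c difference 0.50) and 0 without pair 2 or pair 3. The difference of Cdkn2c ran from 0.34 to 0.50 over the alternatives, with adjusted p from 0.028 to 0.60. Its sign could not reverse when arrays were left out or weighted, since all its Dali knockdown arrays lay above all control arrays. The variance filter, unannotated rows, the block over all pairs and the trended prior leave the difference itself unchanged (0.41). With array weights its adjusted p was 0.099 but its difference (0.34) fell short of 1.3-fold. Without single arrays its difference ran from 0.35 to 0.49. The signs of Cdkn1b probe set 2, Cdkn1c, Cdkn2b and Cdkn2d, none of them called, changed when single arrays were left out.

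Over all probe sets, 133 were called, against 41 without the variance filter, 0 with unannotated rows kept, 896 with the replicate block, 427 with a trended robust prior and 1148 with array weights. Leaving out single arrays gave 4 (without Dali knockdown replicate 1) to 508 (without Dali knockdown replicate 2), with 53, 63 and 331 without control replicates 1, 2 and 3. Block fits without pairs 1, 2 and 3 gave 926, 0 and 1. Called genes in the lists numbered 0, 1, 1, 0, 1, 2 and 1 for CDKs and cyclins, ubiquitin ligases, upstream factors, Polycomb genes, pocket proteins and E2Fs, the p53 axis, and other genes that restrain CDKs or carry a CDKN name. They numbered 2, 2, 2, 1, 3, 7 and 1 with the replicate block and 0, 0, 1, 0, 0, 1 and 0 without the variance filter.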
